A study of Mus musculus with 13 samples.

Results

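The regions of the mouse genome around Gli2 and Gli3 were examined for binding of 4 transcription factors in neural progenitors derived from mouse embryonic stem (ES) cells, by chromatin immunoprecipitation and sequencing (ChIP-seq). A peak was counted at Gli2 when its centre lay between 120600000 and 121050000 on chromosome 1, a window of 450 kb, and at Gli3 when it lay between 15400000 and 15950000 on chromosome 13, a window of 550 kb. Positions are on build mm9 throughout. Of the 23280 peaks in the 4 deposited lists, 23 met this rule, 12 at Gli2 and 11 at Gli3. Nkx2.2 had 6 of them, Nkx6.1 had 3, Olig2 had 13 and Gli3FLAG had 1. Every peak was 300 bp wide. The loci were chosen by their peaks and coverage in these same data, so the number of peaks and their heights are given as a description and not tested.

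Gli2 and Gli3 are zinc finger transcription factors that carry the Hedgehog signal to the genome. In the neural tube Gli2 acts mainly as an activator, while Gli3 is cut to a shorter repressor form where the signal is absent. Nkx2.2 and Nkx6.1 are homeodomain proteins and Olig2 is a basic helix-loop-helix protein, which together mark ventral progenitor domains that Sonic hedgehog induces. The 3 are known there largely as repressors of genes of neighbouring domains. Peaks at the Gli2 and Gli3 loci therefore concern factors induced by a signal and the genes of 2 proteins that transmit it.

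Nkx2.2, Nkx6.1 and Olig2 were profiled in ventral progenitors whose background the labels give as mixed (C57BL6/J, 129 Sv, Swiss Webster). These spent 2 days in suspension and 3 further days with 500 nM all-trans retinoic acid and 160 to 800 nM Smoothened agonist, which switches on Hedgehog signalling. The first replicates of Nkx6.1 and Olig2 were from the line YFP3.1. The first Nkx2.2 replicate and every second replicate were from Rosa26-Gli1FLAG, a YFP3.1 derivative. Gli3FLAG was profiled with the anti-FLAG M2 antibody in progenitors the labels call dorsal. They too spent 2 days in suspension and 3 further days with 500 nM retinoic acid, but without the agonist. They came from a V6.5 derivative (C57BL/6 X 129/sv) with a 3xFLAG-Avi tag inserted at the Gli3 initiation codon. In these cells the Gli3 gene itself was thus altered. In any comparison with Gli3FLAG, what comes from the protein, from the line or from the treatment cannot be told apart. There were 7 ChIP libraries and 6 inputs, and 1 peak list per factor, so no test across samples was possible and all values below are descriptions.

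For the 3 ventral factors, coverage around each peak was deposited in 3 blocks of columns that name no library. Coverage here is the mean within 250 bp of the peak centre, in the units of the table, and the flank is the outermost 250 bp on each side of a stretch of 4 kb. In the Nkx2.2 table the median peak had 18.4, 4.43 and 1.20 units in blocks 1, 2 and 3. The Nkx6.1 medians were 10.4, 5.19 and 0.672 units, and the Olig2 medians 11.3, 8.44 and 0.710 units, so block 3 was the lowest in each. In 71 pairs of Nkx6.1 and Olig2 peaks whose centres lay a multiple of 25 bp apart, 100.0% of block 3 values were equal within 0.001 units, against 9.62% in block 1 and 6.86% in block 2. Block 3 of these tables thus held the same values at these places. The labels name 1 library for both factors, an input, but no header ties it to a block. Read depth is unknown, scales differ between tables, and a peak is therefore ranked only within its own table and block.

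No sequence of build mm9 was used here, so the bases under the peaks, and whether a peak lies in an exon, an intron or a promoter, are not given. Gene lengths and neighbours come from a RefSeq table of GRCm38. In it Gli2 (gene ID 14633) spans 220345 bp between the protein-coding genes Tfcp2l1 and Inhbb, with the lncRNA Gm51642 and the microRNA gene Mir6346 within it. Gli3 (gene ID 14634) spans 266304 bp between AW209491 and Inhba. Inhbb and Inhba encode inhibin beta subunits. Peaks are placed at Gli2 or Gli3 by the windows alone, and which gene a peak acts on was not tested. To show the starts of the genes the windows are named for, the 250 bases before each start site are given 5′ to 3′ from RefSeq on GRCm38.p6, with matches to 3 binding motifs in capitals. They are chr1:119053620-119053869 on the minus strand for Gli2 and chr13:15463473-15463722 on the plus strand for Gli3. These positions cannot be set against the mm9 positions of the peaks.
Gli2: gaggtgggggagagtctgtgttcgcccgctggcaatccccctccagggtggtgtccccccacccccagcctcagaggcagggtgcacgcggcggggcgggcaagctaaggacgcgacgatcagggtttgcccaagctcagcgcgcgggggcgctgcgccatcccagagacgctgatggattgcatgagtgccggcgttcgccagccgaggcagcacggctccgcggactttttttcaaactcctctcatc
Gli3: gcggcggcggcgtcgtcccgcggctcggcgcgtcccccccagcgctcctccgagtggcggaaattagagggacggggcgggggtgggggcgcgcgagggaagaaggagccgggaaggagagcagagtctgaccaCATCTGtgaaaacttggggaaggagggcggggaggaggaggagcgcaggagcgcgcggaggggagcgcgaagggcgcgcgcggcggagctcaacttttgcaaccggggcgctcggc
The motifs were searched on both strands: GACCACCCA, bound by Gli proteins, TAATTA, a core of many homeodomain sites, and CANNTG, the E-box of basic helix-loop-helix proteins. Neither promoter held GACCACCCA, which 0.225% of 32851 promoters of the same length held, nor TAATTA, which 4.84% held. The Gli3 promoter held 1 E-box and that of Gli2 none, where 66.2% of promoters held at least 1. It overlaps no match of another motif. Both stretches were rich in G and C, at 67.2% for Gli2 and 72.8% for Gli3, against a median of 52.4%.

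At Gli2, 12 peaks formed 9 separate regions. Olig2 had 8 of these peaks, Nkx2.2 had 2, and Nkx6.1 and Gli3FLAG had 1 each. At Gli3, 11 peaks formed 7 regions, with 5 of Olig2, 4 of Nkx2.2, 2 of Nkx6.1 and none of Gli3FLAG. When the genome is tiled in windows of the same width, 3.24% of 5868 windows of 450 kb held at least 8 Olig2 peaks while 24.5% held at least 2 Nkx2.2 peaks and 40.6% at least 1 Nkx6.1 peak. Of 4804 windows of 550 kb, 8.31% held at least 4 Nkx2.2 peaks while 18.7% held at least 5 Olig2 peaks and 20.9% at least 2 Nkx6.1 peaks. Counting the 4 lists together, 5.90% of windows were as full as that of Gli2 and 12.0% as full as that of Gli3. Among the factors, the fewest windows matched Gli2 in Olig2 peaks and Gli3 in Nkx2.2 peaks.

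**Figure D1:**
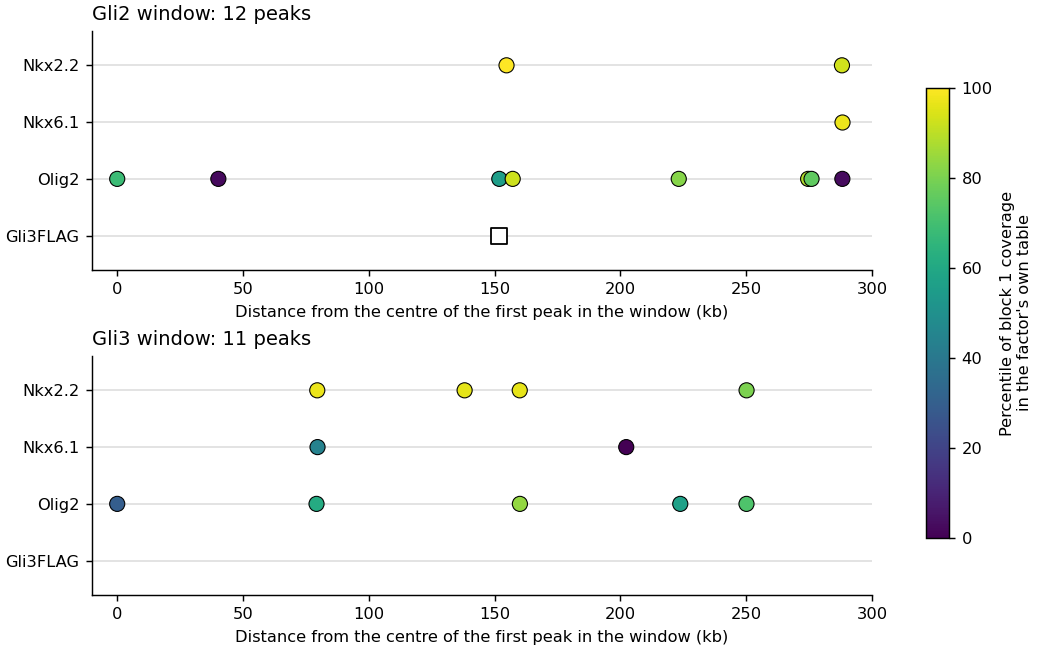
Peaks of the 4 lists at Gli2 (upper panel) and Gli3 (lower panel), by distance in kb from the centre of the first peak in the window, 1 row per list; colour gives the percentile of block 1 coverage among all peaks of the same list, and the open square is the Gli3FLAG peak, for which no coverage table was used. Nkx2.2 peaks are near the top of their list at both genes, while Olig2 peaks range over most of theirs.

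The edges of the windows fell in stretches without peaks. The first and last Gli2 members lay 56 and 105.7 kb inside the edges, and those of Gli3 lay 156.6 and 143.2 kb inside. The nearest peaks outside were an Olig2 peak 86.2 kb before the Gli3 window, with 5.22 units in block 1 and 3.18 in block 2, and an Nkx2.2 peak 152.1 kb after the Gli2 window, with 29.5 and 6.41 units. For Gli3FLAG the nearest listed peaks to the Gli3 window lay 9160 kb before it and 4002 kb after it.

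The member that ranked highest within its own table was an Nkx2.2 peak at Gli2. The Nkx2.2 peak from 120810604 to 120810903 had 489.2, 75.5 and 0.897 units in blocks 1, 2 and 3. It ranked 1 of 5551 in block 1 and 4 of 5551 in block 2. The next highest Nkx2.2 peak of the genome had 458.4 units in block 1, and the median peak 18.4. Block 3, at 0.897 units, was below its median there and lower than its own flank, which had 1.26 units.

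This peak was also broad. Coverage stayed at or above 50% of its highest value over 450 bp in block 1 and 575 bp in block 2, where 90% of Nkx2.2 peaks had at most 275 bp in block 1 and 450 bp in block 2. It had a pair of summits. In block 1 they reached 694.7 units at -250 bp from the centre and 880.6 units at 25 bp, with a dip to 495.5 units at -150 bp. Block 2 showed the same form, with 99.5 units at -275 bp, 78 units at -100 bp and 109.2 units at -25 bp.

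No peak of another list overlapped this Nkx2.2 peak. Of the 555 Nkx2.2 peaks in the top 10% by block 1 coverage, 59.1% overlapped another list. It was nonetheless flanked on both sides. An Olig2 peak and the Gli3FLAG peak lay 2866 and 2849 bp before it and another Olig2 peak 2456 bp after it, so that 4 peaks of 3 factors stood within 5622 bp, from 120807738 to 120813359. The Olig2 peak after it, from 120813060 to 120813359, was the highest Olig2 peak at either gene by block 1, with 41.3, 21.3 and 2.09 units in blocks 1, 2 and 3. It ranked 908 of 11747 in block 1 and at percentile 84.9 in block 2.

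The Gli3FLAG peak, from 120807755 to 120808054, was almost superimposed on the Olig2 peak from 120807738 to 120808037. Their centres were 17 bp apart and all but 17 bp of each was shared. Over whole lists, 20.1% of Gli3FLAG peaks overlapped an Olig2 peak and 3.26% of Olig2 peaks overlapped a Gli3FLAG peak. The Olig2 peak there was of ordinary height, with 12.5 units in block 1 (percentile 55.8), 7.48 in block 2 (percentile 44.3) and 1.36 in block 3 (percentile 89.5). Its flank was 2.38 units in block 1 and 1.98 in block 2, so it rose 3.98 and 2.85 times over it (1 unit added to both), while block 3 rose 2.36 times over a flank of 0. As the factors were profiled in different cultures and lines, the overlap does not show binding of Olig2 and Gli3 in the same cells. At least 1 Gli3FLAG peak, as at Gli2, occurred in 20.7% of windows of 450 kb. At Gli3 all 3 ventral factors had peaks without any of Gli3FLAG, as did 19.8% of windows of 550 kb.

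**Figure D2:**
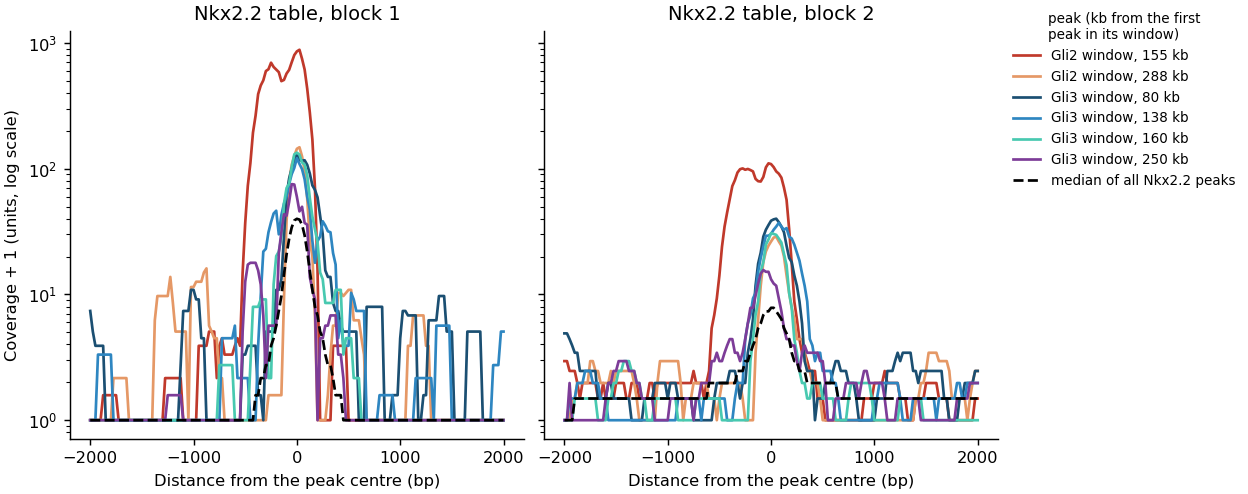
Coverage plus 1 (units, log scale) in the deposited Nkx2.2 table from 2000 bp before to 2000 bp after the centre of each of the 6 Nkx2.2 peaks, in block 1 (left) and block 2 (right), with the median of all Nkx2.2 peaks as a dashed line. All 6 rise above the median profile at the centre in both blocks, and the Gli2 peak with 489.2 units stands far above the rest with 2 summits.

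All 6 Nkx2.2 peaks were high within their table. In block 1, 5 of the 6 were in the top 10% of Nkx2.2 peaks (10.0% of the list by construction). In block 2, 4 of the 6 were (10.0% of the list). The block 2 count was 5 with coverage taken within 100 bp of the centre and 3 within 500 bp, while that of block 1 stayed at 5. Block 1 coverage of the 4 at Gli3 was 65.0 units at 15635987, 59.7 at 15716473, 57.9 at 15694559 and 29.1 at 15806637. The same peaks had 21.5, 14.2, 22.5 and 7.92 units in block 2. The first 3 of these lay between percentiles 95.9 and 96.9 in block 1 and between 91.8 and 97.3 in block 2. Only the last was below the top 10%, at percentiles 80.1 and 76.3. Within 500 bp the peak at 15716473 was also below it in block 2, at percentile 88.4. In block 3 none of the 6 was in the top 10% (10.0% of the list), and all were below the median, between percentiles 9.82 and 48.6. Early lines of the whole Nkx2.2 list tended to have lower block 3 coverage (Spearman correlation of line and coverage 0.278) and higher block 1 coverage (-0.827). The 6 peaks were at lines 4 to 1202 of 5551. Whether their low block 3 values are particular to these loci was not tested. Coverage at the centre over the flank ranged from 26.3 to 423.2 in block 1 and from 6.69 to 45.9 in block 2 (1 unit added to both), against medians of 13.8 and 3.65 over the Nkx2.2 table.

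**Figure D3:**
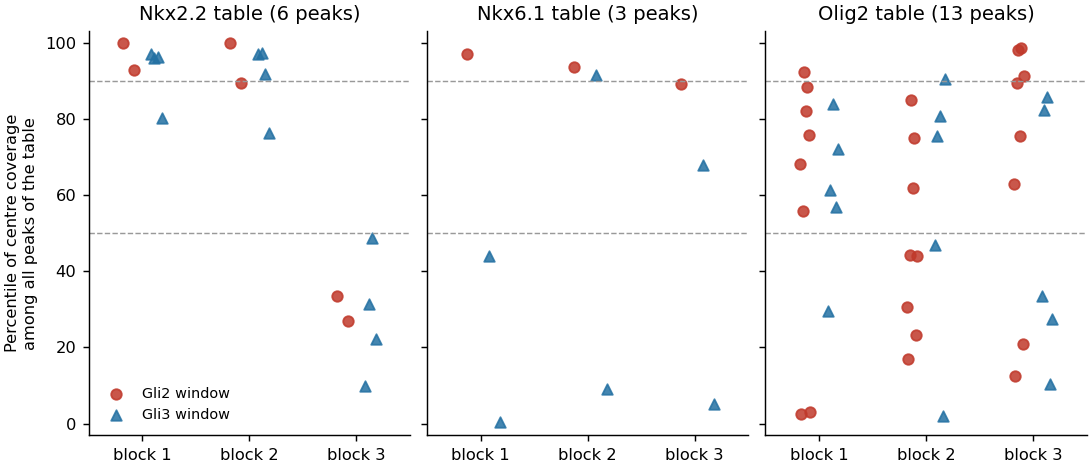
Percentile of centre coverage of each ventral factor peak at Gli2 (circles) and Gli3 (triangles) among all peaks of its own table, for blocks 1, 2 and 3, with dashed lines at percentiles 50 and 90. Nkx2.2 peaks lie above percentile 76 in blocks 1 and 2 and below 50 in block 3, whereas Olig2 peaks spread from 2.09 to 98.7 over the blocks.

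Of the 23 peaks, 12 overlapped a peak of another list by at least 1 bp, 5 at Gli2 and 7 at Gli3. By factor these were 4 of 6 Nkx2.2 peaks (35.3% of the whole list), 2 of 3 Nkx6.1 peaks (47.1%), 5 of 13 Olig2 peaks (21.7%) and the Gli3FLAG peak (36.3%). For the 4 lists together 30.6% of peaks did so. With so few members these shares are not set against each other. With at least 1 bp counted as shared, each locus had 1 region with peaks of all 3 ventral factors. With at least 150 bp, or with centres within 100 bp, neither locus had such a region: the Olig2 peak of each no longer counted as shared, nor, with centres within 100 bp, did Nkx2.2 and Nkx6.1 at Gli3. Peaks directly overlapping both other ventral factors made up 10.1% of the Nkx2.2 list, 13.5% of the Nkx6.1 list and 4.61% of the Olig2 list. These are shares of single peaks and not of regions joined in chains. Each peak of the Gli2 region overlapped both others, but at Gli3 only the Nkx2.2 peak did.

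At Gli2 the region of 3 ventral factors ran from 120943932 to 120944402. Nkx6.1 and Nkx2.2 were centred 13 bp apart there and shared all but 13 bp, whereas the Olig2 peak began further on, at 120944103. Over the whole list, 16.1% of Nkx2.2 peaks overlapped an Nkx6.1 peak. The Nkx6.1 peak was the highest of that factor at either gene, with 38.4, 17.2 and 1.29 units in blocks 1, 2 and 3. It was at percentile 97 in block 1 and 93.6 in block 2. Nkx2.2 had 46.5, 12.7 and 0.780 units in blocks 1, 2 and 3, at percentiles 92.8 and 89.4 in the first 2 blocks. Olig2 had only 5.35 units in block 1, at percentile 2.95, but 7.44 units in block 2, at percentile 43.9. Homeodomain coverage was thus near the top of its tables and Olig2 coverage near the bottom of its own in block 1. In the Nkx2.2 table, block 1 coverage was 142.9 units at the Nkx2.2 centre and 19.2 units 150 bp further, near the Olig2 centre.

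At Gli3 the region of 3 ventral factors was wider, from 15635691 to 15636390, a length of 700 bp. It was a chain in which Nkx2.2 shared most of its length with Nkx6.1 and only 4 bp with Olig2, and in which Olig2 and Nkx6.1 did not overlap. Nkx2.2 had 65.0 units in block 1 and 21.5 in block 2, at percentiles 96.9 and 97. Nkx6.1 had 9.66 units in block 1 and 15.5 in block 2, so it was at percentile 44 in block 1 and 91.4 in block 2. Its ratio of block 2 to block 1, 1.61, was higher than in 98.95% of Nkx6.1 peaks.

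The blocks of the Olig2 table put its summit in different places there. In block 1 coverage was highest at 25 bp from the Olig2 centre, at 21.9 units, and was 14.7 units at 300 bp, the offset nearest the Nkx2.2 centre. Block 2 was highest at 275 bp, at 36.9 units, and had 15.9 units at the Olig2 centre. In both blocks the Olig2 signal extended over the Nkx2.2 centre, although the called Olig2 peak shared only 4 bp with the Nkx2.2 peak. Over its 500 bp around the centre, this Olig2 peak averaged 13.8 and 15.6 units in the first 2 blocks, at percentiles 61.2 and 75.6. These percentiles depended on the width taken. They were 49.9 and 58.5 within 100 bp of the centre, and 70.4 and 88.3 within 500 bp of it.

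**Figure D4:**
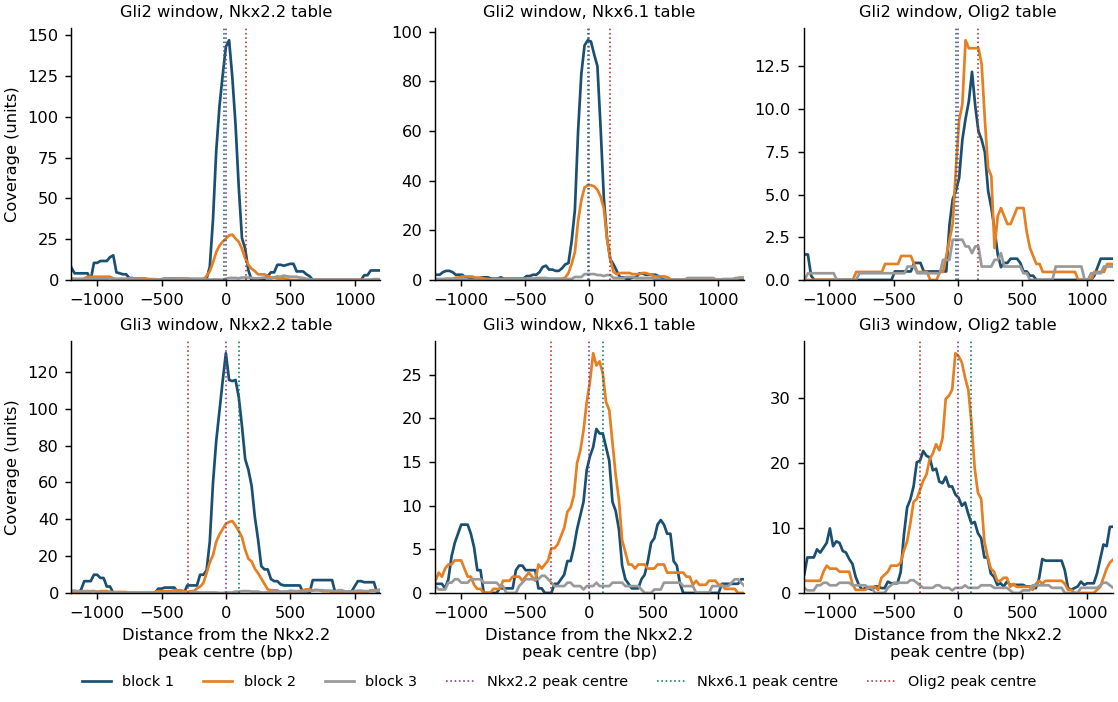
Coverage (units) at the region of 3 ventral factors at Gli2 (upper row) and Gli3 (lower row) in the Nkx2.2, Nkx6.1 and Olig2 tables, by distance in bp from the Nkx2.2 peak centre, with blocks 1 to 3 as lines and the 3 peak centres as dotted lines; each panel has its own scale. At Gli2 the summits of blocks 1 and 2 lie within 200 bp of the Nkx2.2 centre, and at Gli3 the Olig2 summit is at 21.9 units near its own centre in block 1 and at 36.9 units near the Nkx2.2 centre in block 2.

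Nkx2.2 and Olig2 shared a pair of further places at Gli3. At 15716473 to 15716836 their centres were 64 bp apart, with 59.7 units of Nkx2.2 and 26 units of Olig2 in block 1. In block 2 the values were 14.2 and 18.3 units. The Olig2 peak was the highest of that factor at Gli3 by block 1, at percentile 83.8, and was at percentile 80.7 in block 2. At 15806606 to 15806936 the centres were 31 bp apart. Nkx2.2 had 29.1 units in block 1 and 7.92 in block 2 there, and Olig2 had 17.5 and 27.5. This was the highest Olig2 peak at either gene by block 2, at percentile 90.4, and its ratio of block 2 to block 1, 1.57, was higher than in 95.3% of Olig2 peaks. Over whole lists 24.3% of Nkx2.2 peaks overlapped an Olig2 peak.

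The 13 Olig2 members spread over most of their table. In block 1, 10 of the 13 were at or above the table median, with a median percentile of 68.2, and in block 2, 6 of the 13 were, with a median percentile of 47. In the top 10% of the table there was 1 of 13 in block 1 (9.99% of the list) and 1 of 13 in block 2 (9.99% of the list), which is near the background share and no result about the members. Block 1 coverage ranged from 5.27 to 41.3 units with a median of 15.9, and block 2 coverage from 1.40 to 27.5 units with a median of 7.91. The whole table had medians of 11.3 and 8.44 units. Within 250 bp of the centre the blocks ordered the loci differently. Olig2 members at Gli2 had a median percentile of 71.9 in block 1 and 44.1 in block 2, and those at Gli3 had 61.2 and 75.6. The Gli3 medians were the values of 1 peak, at 15635691, which within 100 bp was at percentiles 49.9 and 58.5. Within 500 bp the block 1 order did not hold, as the median at Gli3 was 70.4 and that at Gli2 slightly lower.

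Some Olig2 peaks had low block 2 coverage for their block 1 coverage. The one from 15780282 to 15780581 at Gli3 had 12.7 units in block 1 and 1.40 in block 2, a ratio of 0.110 that was lower than in all but 0.56% of Olig2 peaks. The ratio for the peak from 120931853 to 120932152 at Gli2 was 0.235, from 19.3 and 4.54 units, which put it at percentile 5.31. Its neighbour 1355 bp before it, at 120930498, had 31.9 and 15.3 units. Of the other Olig2 peaks, that at 120879070 had 23.9 and 11.0 units, that at 120655853 had 15.9 and 5.48, that at 120696054 had 5.27 and 3.76, and that at 15556465 had 8.54 and 7.91. The Nkx6.1 peak from 15758804 to 15759103 stood alone and was weak in both blocks, with 4.52 and 1.82 units, at percentiles 0.366 and 9.01. Of the 3 Nkx6.1 members, 1 was in the top 10% of its table in block 1 (9.99% of the list), 2 were in block 2 (9.97%) and 0 in block 3 (9.89%). With coverage taken within 100 bp of the centre the block 3 count was 1, since the peak at 120943932 was at percentile 95.3 in place of 89.1.

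**Figure D5:**
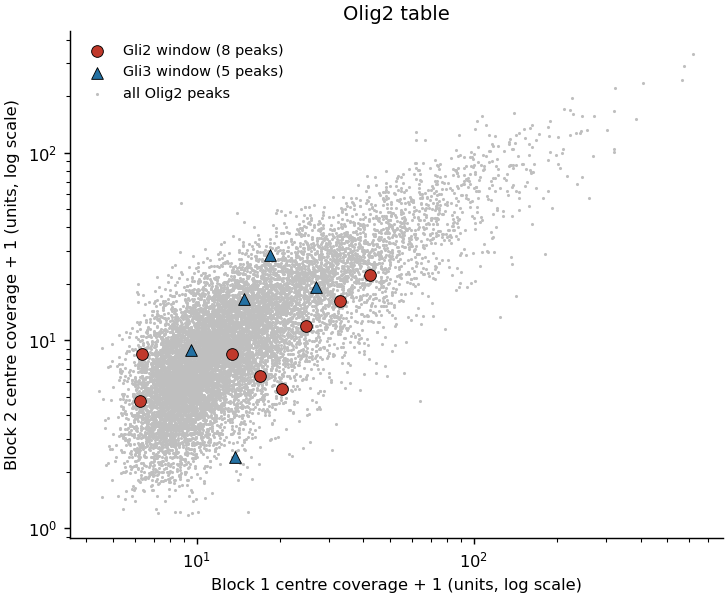
Centre coverage plus 1 of Olig2 peaks in block 1 (horizontal) and block 2 (vertical), in units on log axes, for the 8 peaks at Gli2 (circles), the 5 at Gli3 (triangles) and all 11747 Olig2 peaks (grey points). The members lie within the cloud of all peaks, with the Gli3 peak of 12.7 and 1.40 units at its lower edge.

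Block 3 coverage was high within its table at some Olig2 peaks of Gli2. In that block 3 of the 8 were in the top 10% of the Olig2 table (9.92% of the list), with 2.24 units at 120930498, 2.09 units at 120813060 and 1.46 units at 120944103. Coverage at the centre rose 2.33, 2.11 and 1.26 times over the flank there, against a median of 1.18 over the table. The peak at 120944103 was at percentile 91.2 there, but at 83.5 with coverage taken within 100 bp of the centre and at 77.9 within 500 bp, below the top 10% in both. Within 100 bp the count was thus 2 of 8, and within 500 bp it was 3 of 8 with the peak at 120807738 in its place. None of the 5 Olig2 members at Gli3 was in the top 10% by block 3. The peaks at 120930498 and 120813060 were also the highest at Gli2 in blocks 1 and 2, and the part of block 3 in those values was not tested.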

How the data were processed

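Peak lists and coverage tables were analysed as deposited. Build mm9, Bowtie2 2.2.4 and HOMER are listed in the submitters' processing notes. Thresholds, scaling and any pooling of replicates are not given in the sources used here. Each list was deposited by the authors as chromosome, start and end without a score. Their deposited coverage signal, per the file headers, is given from 2000 bp before to 2000 bp after the centre in steps of 25 bp, in 3 blocks. Low values of a block were whole multiples of its smallest value above 0 (tolerance 0.02 of it). Starts are printed 1-based.

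Table row i was taken as list line i. In pairs of peaks of 1 list within 1000 bp, shifted profiles correlated with medians of 0.970 to 0.998 over the tables and blocks. The Gli2 pair of Olig2 peaks 1355 bp apart gave 0.999, 0.999 and 0.97. Percentiles are shares of a table's peaks with lower coverage. Tiled windows start at the first base of each chromosome and end with its last peak.

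The members, windows and settings were chosen with earlier results of these data known. All peaks in the windows are named, in full where they overlap another list, are the highest of their list at a locus, or are of Gli3FLAG. Other Hedgehog pathway genes were not analysed here, for want of an annotation of build mm9. Columns left out as belonging to other samples numbered 0. The counting of overlaps and the ranking were tested on simulated data. Python 3.11.15 with numpy 2.4.6, pandas 2.3.3, scipy 1.17.1 and matplotlib 3.10.9 was used.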

Additional observations from a re-analysis of the deposited data

How the results depend on the processing

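Peak counts at each gene did not change with windows narrowed by 50 kb or with any overlap counted, and widening by 100 kb on each side added 1 Olig2 peak at Gli3 (6 against 5) and no other. Peaks shared with another list numbered 12, and 10 with at least 150 bp shared (the 2 lost being the Olig2 members of the regions of 3 ventral factors), 8 with centres within 100 bp and 12 with centres within 1000 bp. Regions of all 3 ventral factors numbered 0 in place of 1 at each gene with at least 150 bp shared or with centres within 100 bp. With coverage taken within 100 bp of the centre, the count of Olig2 members in the top 10% by block 2 was 0 in place of 1 and that of Nkx6.1 members by block 3 was 1 in place of 0, and with 500 bp the median percentile of the ventral members in block 3 was 53.6 in place of 41.1. Adding 0.1 in place of 1 unit gave a median rise over the flank of 37.3 in place of 16 in block 1 and of 15.7 in place of 8.31 in block 2, as dividing by a smaller flank does. The count of Nkx2.2 members in the top 10% by block 2 was 5 with 100 bp and 3 with 500 bp, in place of 4. Of 66 member percentiles, 14 moved by over 5 points with 100 bp and 21 with 500 bp. The cause of the other shifts was not tested. No paired analysis was possible because the blocks of coverage name no library, and for the same reason no replicate was left out. The lists carry no score, so no stricter threshold was tried. Read depth is unknown, which limits how far low values such as those of block 3 can be ranked.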
